A study of Mus musculus with 8 samples.

Results

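The wild-type Th17 cultures of the study came from 2 experiments, and each experiment held 2 arrays of them. Members were chosen by title alone: the samples titled SRC3-WT and those titled RORgt-WT, which made 4 of the 8 arrays in the series. Both pairs carry the genotype label wild-type. One pair came from mice listed as SRC-3 WT and served as the control of SRC-3-deficient cells from mice listed as SRC-3 (f/f). The other came from mice listed as RORgt WT and served as the control of RORgt-deficient cells from RORgt (-/-) mice. Naive CD4+ T cells were activated with antibodies to CD3 and CD28 and differentiated with 3 interleukins, IL-1, IL-6 and IL-23, a mixture that the protocol calls pathogenic Th17 conditions. The protocol names wild-type and SRC-3-deficient cells, and it was taken to cover the RORgt experiment, whose samples are also labelled Th17 cells. Th0 cultures named in it were not analysed here. The labels used here give no age, sex or strain and no Cre driver for the floxed mice. Each group has 2 arrays labelled as biological replicates, with no word on whether the mice were separate. The p-values therefore reflect only the spread of these arrays, which could be technical. Experiment, culture and batch coincide for the 4 wild-type arrays and cannot be told apart. Since RNA came from whole cultures, fewer cells of a kind and less RNA per cell cannot be told apart either.

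Th17 cells are CD4 T cells that secrete the cytokines IL-17A and IL-17F and guard epithelial surfaces against fungi and extracellular bacteria. The transcription factors STAT3, BATF, IRF4 and MAF take part in directing the program. IL-6 turns on STAT3, while IL-1 and IL-23 help the cells to persist and to take on the inflammatory state linked to autoimmune disease. SRC-3, encoded by Ncoa3, is a coactivator that nuclear receptors recruit to switch on their targets. The question put here was which transcripts had the same level in wild-type cells of both experiments and which did not.

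Levels below are log2 signals after all 8 arrays were put on one distribution, and a difference is the RORgt-WT mean minus the SRC3-WT mean. A gene was called at an adjusted p of 0.05 or less in the limma fit described with the processing. Of 11166 genes tested, 6643 were called (59.5%), 3798 of them higher in RORgt-WT (34%) and 2845 lower (25.5%). Most of these differences were small: 4648 of the called genes (70%) lay under 1.5-fold. A 2-fold size rule beside the p left 423 genes (3.79%), with 296 higher (2.65%) and 127 lower (1.14%) in RORgt-WT. The 95% interval of the difference lay within 2-fold for 10144 genes (90.8%). Across genes, arrays of one pair correlated at r = 0.990 (SRC3-WT) and 0.997 (RORgt-WT), and arrays of different pairs at 0.940 to 0.948. For 8966 genes (80.3%) the pairs did not overlap. The median gene differed by 0.11 between the SRC3-WT replicates, by 0.06 between the RORgt-WT replicates and by 0.28 between the pair means. So many calls rest on tight replicates rather than on large differences, and the share of a gene list that was called is read below against 59.5%. The lists were chosen with earlier results of these data known and are described by counts and medians, beside a median of 0.06 over all genes tested.

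All 4 arrays carried the transcripts of CD4 T cells. The 10 measured genes of the CD4 T cell identity list lay within 2-fold, with 5 higher and 1 lower in RORgt-WT. Their share called, 60%, was close to the 59.5% of all genes. Cd4 itself differed by 0.01. Cd3e, a chain of the T cell receptor complex, read 12.74 and 12.85 in SRC3-WT and 13.44 and 13.51 in RORgt-WT, while the costimulatory receptor Cd28 was lower in RORgt-WT by 1.29-fold. With arrays shifted to one median the Cd28 difference of −0.36 became −0.16 and lost its call (adjusted p = 0.0719). Markers of other cells passed the filter to differing extents. None of 10 NK cell markers on the array passed the filter on dim probe sets, which required a log2 signal of 7.85 on at least 2 arrays. Of 12 B cell markers 4 passed, and of 23 myeloid and dendritic cell markers 4 passed. The filter was passed by 2 of 6 CD8 T cell markers, 3 of 6 gamma delta markers, 2 of 8 erythroid and platelet markers and 9 of 13 stromal and epithelial markers. The signal summed over the B cell markers, on the linear scale, was 2073 and 2634 in SRC3-WT and 4205 and 4394 in RORgt-WT. Its brightest member was Ebf1, a B cell transcription factor that read 10.42 and 9.46 against 11.35 and 11.52. The defining B cell genes Cd79a, Ms4a1 and Pax5 stayed below the filter in every wild-type array. The summed myeloid signal was 11462 and 12591 against 14332 and 15113. Within it Cd68, a lysosomal protein of macrophages that other cells also make, rose 2.71-fold. Ly6g, Cst3 and Ctss passed the filter without being called, and Csf1r, Itgam, Lyz2 and Cd14 stayed below it. Summed signals in SRC3-WT and RORgt-WT ranged from 553 to 574 against 637 to 643 for NK cells, 942 to 992 against 1310 to 1333 for CD8 T cells, and 5093 to 5175 against 3693 to 3877 for gamma delta T cells. The gamma delta list holds Il23r, which Th17 cells express too. Sums ran from 1197 to 1217 against 1314 to 1340 for erythroid and platelet markers, and from 23980 to 24850 against 22693 to 22943 for stromal and epithelial markers. The brightest stromal marker was Vim, which T cells also express and which was lower in RORgt-WT by 0.17, while 3 of the 9 that passed, Col3a1, Epcam and Sparc, were called higher. Their part in the differences below was not tested.

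Xist, the RNA that silences one X chromosome in female cells, was bright on all 4 wild-type arrays (13.66 and 13.56 in SRC3-WT, 12.48 and 12.69 in RORgt-WT), and the Y-linked Eif2s3y was dim (4.85 and 4.53, 4.94 and 4.73). The deficient arrays were not alike in this respect. One SRC3-deficient array and both RORgt-deficient arrays had dim Xist (7.01, 6.47 and 6.19) and bright Eif2s3y (11.17, 10.47 and 10.48), so sex differs within that comparison and not between the wild-type pairs. Ncoa3, the gene for SRC-3, read 11.81 and 11.58 in SRC3-WT and 11.59 and 11.61 in RORgt-WT, a difference of −0.10 (95% interval −0.32 to 0.13). It read 11.16 and 10.95 in the SRC3-deficient arrays. The comparison of these with SRC3-WT called 22 genes (0.197%) and not Ncoa3 (adjusted p = 0.0601), and where the probes lie relative to the deletion is not given in the labels.

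Th17 transcripts were present in both wild-type pairs. Of 31 measured members of the Th17 program list 18 had a difference bounded within 2-fold, a smaller share than the 90.8% of all genes tested. Of the 31, 16 were higher and 6 lower in RORgt-WT (71% called, against 59.5% of all genes), with a median of 0.32. Il10, which restrains inflammation, and Cd5l, a lipid regulator of non-pathogenic Th17 cells, were on the array but below the filter, and 3 further genes of the list were not analysed here. Some of the list's bright transcripts differed by less than the median gene. Maf read 12.39 and 12.44 in SRC3-WT and 12.30 and 12.38 in RORgt-WT, Il21 read 12.98 and 12.90 against 12.76 and 12.80, and Hif1a, whose product links oxygen sensing to Th17 fate, read 13.32 and 13.16 against 13.36 and 13.38. None of these 3 was called, and their intervals ran from −0.27 to 0.11, from −0.36 to 0.04 and from −0.03 to 0.29. Maf's small negative difference was positive under each of 3 other scalings. Irf4 (0.26, interval −0.01 to 0.53) and Rora, an orphan nuclear receptor (0.32, interval −0.05 to 0.70), were not called either. Both passed without the first SRC3-WT array, with adjusted p of 0.00638 and 0.0119, as did Hif1a (0.0373). Batf (0.42) and Stat3 (0.35) were called, at under 1.5-fold, and Stat3 lost its call without the second RORgt-WT array (adjusted p = 0.0640). The receptor chains also lay close together: Il6st, the signalling chain of the IL-6 receptor, differed by −0.06 and Il12rb1, the chain shared by the IL-12 and IL-23 receptors, by −0.13. Il6ra (−0.25) was called only barely, and the call was lost without any single wild-type array. Bcl6 (0.15), the factor of follicular helper cells, and Il9 (0.32), a mast cell growth factor, were not called. Runx1 (0.23), a Runt family factor, and Satb1 (−0.17), a chromatin organiser, were called at differences far under 1.5-fold. Runx1 lost its call without the second RORgt-WT array (adjusted p = 0.0537). That of Satb1 was lost under most alternatives, among them deposited values (0.103) and the shift to one median (0.960).

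Il17a and Il17f were above the filter in both pairs, and the first RORgt-WT array had the most of each. Il17a read 10.39 and 10.03 in SRC3-WT and 11.59 and 11.26 in RORgt-WT. The groups did not overlap, and the mean was 2.32-fold higher in RORgt-WT (log2 difference 1.21 ± 0.16 SE, n = 2 arrays a group, adjusted p = 0.000667). Il17f read 11.99 and 11.60 against 12.40 and 12.21, a 1.43-fold difference (adjusted p = 0.0109) that lost its call without the first RORgt-WT array (0.0779). Csf2, which encodes GM-CSF, the cytokine that makes Th17 cells pathogenic in autoimmune models, read 7.65 and 7.59 against 8.77 and 8.54, 2.04-fold higher in RORgt-WT. Both SRC3-WT values lay below the filter. Il24, an IL-10 family cytokine, read 10.68 and 9.74 against 12.14 and 12.22 and was 3.91-fold higher (adjusted p = 0.000947). Lif, a cytokine of the IL-6 family, read 10.74 and 9.80 against 12.07 and 12.04 and was 3.45-fold higher (adjusted p = 0.00118). The SRC3-WT replicates lay 0.94 apart for both Il24 and Lif, the first replicate higher in each case.

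The receptors and migration genes of Th17 cells did not move in 1 direction. Il23r, the receptor chain through which IL-23 sustains these cells, read 11.99 and 11.99 in SRC3-WT and 11.44 and 11.32 in RORgt-WT, 1.52-fold lower in RORgt-WT (adjusted p = 0.00719). That call was lost without the second RORgt-WT array (0.0513). Ccr6, the homing receptor of Th17 cells, read 7.89 and 7.56 against 8.59 and 8.46, 1.74-fold higher in RORgt-WT. Its ligand Ccl20, which Th17 cells themselves secrete, went the other way at 10.37 and 10.06 against 9.26 and 8.73, 2.32-fold lower in RORgt-WT (log2 difference −1.22 ± 0.19 SE, adjusted p = 0.00126). For both genes the groups did not overlap.

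Of the 31 genes Tgfb3 had the largest difference. It encodes TGF-β3, which Th17 cells make in response to IL-23 and which promotes the pathogenic state. It read 8.13 and 7.72 in SRC3-WT and 10.58 and 10.59 in RORgt-WT, 6.31-fold higher (log2 difference 2.66 ± 0.18 SE, adjusted p = 5.32e-05). Tgfb1, by contrast, was 1.41-fold higher and bright in all 4 arrays, between 12.10 and 12.62. Fosl2, an AP-1 factor that limits Th17 plasticity, read 10.74 and 10.11 against 12.14 and 12.20, 3.35-fold higher. Prdm1, which encodes Blimp-1, was 1.80-fold higher (7.22 and 7.63 against 8.35 and 8.20). The TNF receptor family member Tnfrsf8, known as CD30, was 1.90-fold higher, Basp1 1.97-fold, and Nfkbiz, an NF-kB partner needed for Il17a transcription, 1.46-fold. Basp1 lost its call without the second SRC3-WT array and without the second RORgt-WT array (adjusted p = 0.0528 and 0.0735). Ahr, the ligand-activated aryl hydrocarbon receptor, read 9.91 and 10.10 against 9.16 and 9.08, 1.85-fold lower in RORgt-WT (adjusted p = 0.000392). Ikzf3, which encodes the zinc-finger factor Aiolos, read 10.72 and 11.26 against 9.97 and 9.67 and was 2.25-fold lower.

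**Figure D1:**
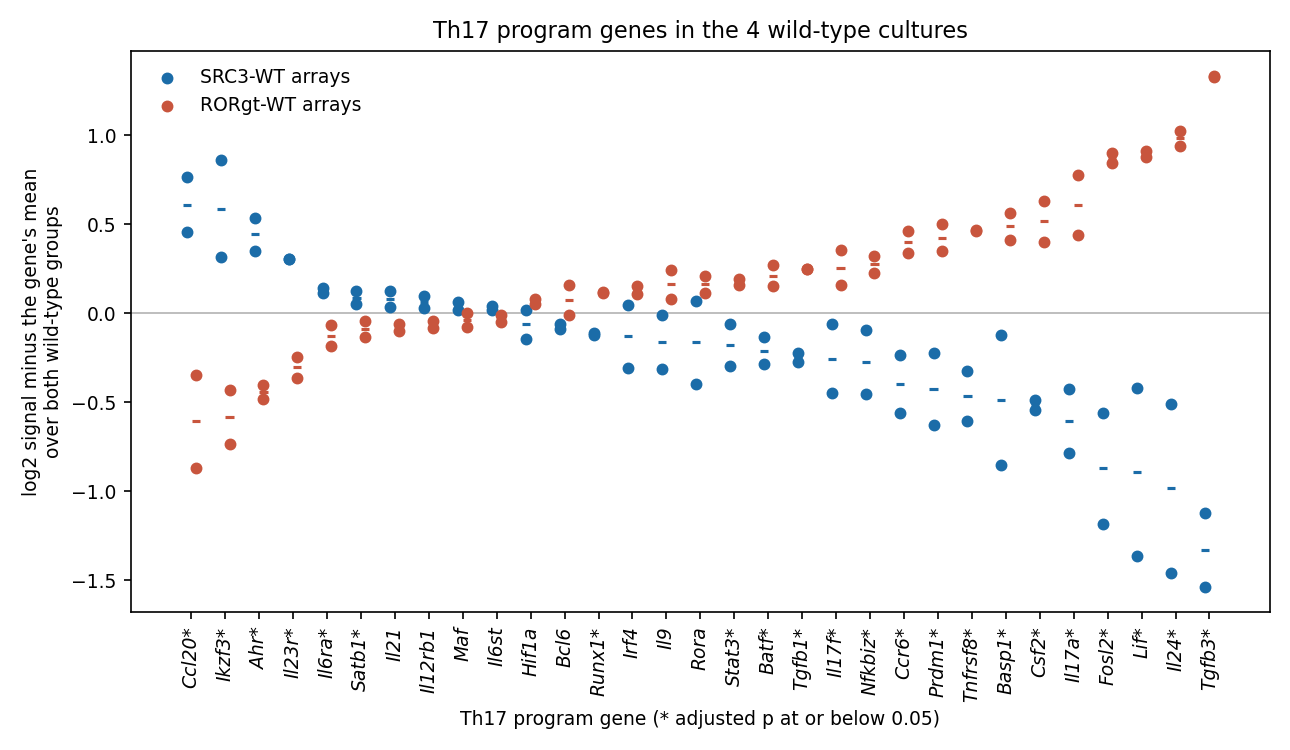
Log2 signal of each of the 31 measured Th17 program genes on the 2 SRC3-WT arrays (blue) and the 2 RORgt-WT arrays (red), after subtraction of the gene's mean over both groups; short lines mark group means. Ccl20, Ikzf3, Ahr and Il23r lay higher in SRC3-WT, Maf, Il6st and Hif1a lay close together, and Fosl2, Lif, Il24 and Tgfb3 lay higher in RORgt-WT.

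Beyond the Th17 list, the largest measured difference was that of Cd93, a surface glycoprotein better known from endothelium and early B cells. It read 6.21 and 6.10 in SRC3-WT, below the filter, and 9.21 and 9.43 in RORgt-WT, 8.98-fold higher as measured and 2.77-fold above the filter value. Cd93 passed the filter through the RORgt-WT arrays alone, so that it differs follows in part from its selection. The dimmer pair lay below the filter on both arrays for 76 of the 423 genes, 43 higher and 33 lower in RORgt-WT, and 7 of these passed through the brighter pair alone. A fold of such a gene rests on a dim signal. The next were Tgfb3, Hamp, which encodes the iron hormone hepcidin (5.87-fold), and the mitochondrial adenylate kinase Ak4 (5.19-fold). They were followed by the interferon-induced transmembrane family member Ifitm6 (4.83-fold), the small GTPase Rab33a (4.79-fold) and the cytokine Il3 (4.73-fold). Hamp read 7.53 and 6.83 against 9.79 and 9.68, and Ifitm6 read 6.03 and 5.85 against 8.29 and 8.13, so both lay below the filter in SRC3-WT, as did Rab33a and Il3. Measured from the filter value, the RORgt-WT mean was 3.70-fold higher for Hamp and 1.29-fold higher for Ifitm6. The peptidoglycan recognition protein Pglyrp1 was 4.49-fold higher, the retinol transporter Stra6 4.08-fold and the granule protein Nkg7 3.99-fold. Nkg7 differed by over 1 log2 unit between the SRC3-WT replicates (9.53 and 8.42), against 11.02 and 10.91 in RORgt-WT. On the other side the largest was Cyp1a1, 6.87-fold lower in RORgt-WT. Of the 127 genes at least 2-fold lower, 108 were protein-coding. Those with the largest differences included 4 non-coding RNAs: Mir687, Platr25, the U8 small nucleolar RNA Snord118 (3.56-fold lower) and the nuclear RNA Malat1, which read 13.22 and 13.06 against 11.62 and 11.45 (3.03-fold lower). Platr25 and Snord118 lay below the filter in RORgt-WT, with SRC3-WT means 1.01-fold and 3.03-fold above the filter value. The orphan receptor gene Gpr52 read 10.83 and 10.65 against 8.99 and 9.03, 3.31-fold lower. Sestd1 (2.96-fold), Slc25a40 (2.74-fold), Sytl2 (2.69-fold), Phxr4 (2.67-fold) and Atp5md, a small subunit of ATP synthase (2.60-fold), completed the genes lower in RORgt-WT outside the lists below. Sytl2 passed the filter through the SRC3-WT arrays alone, so that it differs follows in part from its selection. Its SRC3-WT mean of 8.19 was 1.27-fold above the filter value, against 6.76 in RORgt-WT.

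Mir687 was the only microRNA gene among those with the largest differences. The probe set read 8.09 and 8.09 in SRC3-WT and 6.11 and 6.20 in RORgt-WT, 3.82-fold lower. Both RORgt-WT values lay below the filter, and the SRC3-WT mean was 1.18-fold above the filter value. The array probes its locus and cannot tell precursor from mature RNA. The mature sequence, from RefSeq on GRCm38.p6 at chr14:73206808-73206829 on the minus strand, is shown to identify the product of that locus, with the seed (bases 2 to 8) in capitals.
mmu-miR-687: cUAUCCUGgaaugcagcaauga

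Genes of the hypoxia response were shifted nearly all one way. When oxygen falls, the prolyl hydroxylases that mark HIF-1α for destruction stall, and HIF-1 then induces glucose uptake, glycolysis and its own inhibitors. Th17 cells depend on HIF-1 and on glycolysis more than regulatory T cells do. Of 25 measured members of the hypoxia list, 23 were higher in RORgt-WT, 0 were lower (92% called) and 11 were at least 2-fold higher. The list median was 0.82. Ak4, which balances mitochondrial nucleotides, read 9.98 and 9.70 in SRC3-WT and 12.21 and 12.22 in RORgt-WT. P4ha2, a collagen prolyl hydroxylase, read 7.67 and 7.49, below the filter, against 9.59 and 9.55, 3.97-fold higher (log2 difference 1.99 ± 0.10 SE, adjusted p = 3.55e-05). Bnip3, a trigger of mitochondrial autophagy, read 10.86 and 10.79 against 12.61 and 12.60, 3.44-fold higher (adjusted p = 3.24e-05). Ankrd37 was 2.66-fold higher and the selenium-binding protein gene Selenbp1 2.55-fold. Selenbp1 lay below the filter in SRC3-WT, and its RORgt-WT mean was 1.78-fold above the filter value. Hilpda, a lipid droplet protein induced by hypoxia, was not in the list but among the largest differences, at 8.25 and 8.11 against 10.37 and 10.29 (4.45-fold). In each of these genes both RORgt-WT arrays lay above both SRC3-WT arrays by far more than either pair's spread. Hif1a itself was not called, as given above. The hypoxia list had a median difference of only 0.10 between the SRC3-WT replicates.

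Glycolysis followed in part. Of 19 measured members, 13 were higher in RORgt-WT and 0 lower (68.4% called, against 59.5% of all genes), 7 of them at least 2-fold, with a median of 0.59. The glycolysis and hypoxia lists share members, Slc2a1 and Pdk1 among them, so their shifts are not separate results. The glucose transporter gene Slc2a1 read 12.22 and 12.13 against 13.30 and 13.37, 2.24-fold higher. Hk2, the hexokinase of activated lymphocytes, was 2.62-fold higher, and Pfkl, the liver-type phosphofructokinase that commits glucose to the pathway, 2.47-fold (10.15 and 10.24 against 11.51 and 11.49). Slc16a3, which exports lactate, read 10.57 and 10.40 against 12.42 and 12.43, 3.84-fold higher. Pdk1, which keeps pyruvate from the mitochondria, was 2.03-fold higher, and the mutase Pgam1 1.61-fold. The remaining 6 members, Hk1, Pfkm, Pfkfb4, Pgk1, Ldha and Slc16a1, were not called. They are listed here after their values were seen. Of 42 measured subunits of the respiratory chain, the other way to make ATP, 41 lay within 2-fold, where 90.8% of all genes tested did. Of these subunits 17 were higher and 5 lower (52.4% called, against 59.5% of all genes). Their median was 0.13, so the list lay near the background.

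HIF-1 binds a core of 5 bases. Promoters of P4ha2 and Bnip3 are shown with each ACGTG or GCGTG, on either strand, in capitals. They were chosen for their many matches, while the 4 windows of Ak4, the list's largest difference, held 2 or 3. The windows span the start of the gene and are equally long, from RefSeq on GRCm38.p6: P4ha2 at chr11:54100674-54100973 on the plus strand and Bnip3 at chr7:138909457-138909756 on the minus strand, each the single window of its gene.
P4ha2: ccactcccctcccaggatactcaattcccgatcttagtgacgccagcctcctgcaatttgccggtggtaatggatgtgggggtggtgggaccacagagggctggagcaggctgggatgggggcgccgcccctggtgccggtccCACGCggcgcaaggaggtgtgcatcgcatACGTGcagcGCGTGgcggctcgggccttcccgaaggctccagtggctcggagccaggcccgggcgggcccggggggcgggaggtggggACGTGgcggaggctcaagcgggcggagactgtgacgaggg
Bnip3: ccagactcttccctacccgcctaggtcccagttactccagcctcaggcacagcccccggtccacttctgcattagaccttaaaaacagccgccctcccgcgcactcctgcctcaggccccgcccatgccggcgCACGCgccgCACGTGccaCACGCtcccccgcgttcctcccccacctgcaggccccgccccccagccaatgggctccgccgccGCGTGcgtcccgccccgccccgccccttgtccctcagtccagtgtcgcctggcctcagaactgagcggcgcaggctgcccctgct
The P4ha2 window held 4 matches and the Bnip3 window 5, where 3.86% of 32851 promoter windows held 4 or more. A CACGTG, as in the Bnip3 window, holds ACGTG on each strand and was counted on both, here and in all windows. Of the 11 hypoxia genes that were at least 2-fold higher, 10 had windows, and 13 of these 15 windows held at least 1 match. Some windows of one gene overlap. The share was 43.8% over all promoter windows and 61.9% over those of genes tested, which are richer in such short words. A match is a description of the sequence and not a binding site.

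Genes of the aryl hydrocarbon receptor went the opposite way. The receptor, activated by tryptophan metabolites and pollutants, pairs with ARNT to induce the cytochrome P450 enzymes that clear its ligands and the repressor AHRR that ends the signal, and it promotes IL-22 production in Th17 cells. Of 7 measured members of its list 6 were lower in RORgt-WT and 0 higher, 3 of them at least 2-fold, with a median of −0.89. That made 85.7% called, against 59.5% of all genes. Cyp1a1, its classic target, read 9.49 and 10.42 in SRC3-WT and 7.18 and 7.16 in RORgt-WT, below the filter there (log2 difference −2.78 ± 0.26 SE, adjusted p = 0.000143). The SRC3-WT replicates lay 0.93 apart and both stood over 2 log2 units above RORgt-WT. Ahrr read 8.49 and 9.11 against 6.87 and 7.02, 3.61-fold lower, and Cyp1b1 read 8.06 and 8.46 against 6.95 and 6.96, 2.47-fold lower (adjusted p = 0.0002). Both genes also lay below the filter in RORgt-WT. Their SRC3-WT means were 1.93-fold (Ahrr) and 1.33-fold (Cyp1b1) above the filter value. In all 3 targets, as in Ahr itself, the second SRC3-WT array was the brighter one. The partner Arnt was 1.24-fold lower. Tiparp, also a target of the receptor, had a small difference of 0.14 that was not called. It and the 5 list members below the filter are given here after their values were seen, and they include Cyp1a2, whose dim signal was higher in RORgt-WT by 0.95. Over all members on the array, with no filter, the median was −0.32.

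The receptor binds GCGTG, the core of its xenobiotic response element. The promoter windows of its most different targets are shown with that word, on either strand, in capitals: Cyp1a1 at chr9:57697363-57697662 on the plus strand and Ahrr at chr13:74292282-74292581 on the minus strand.
Cyp1a1: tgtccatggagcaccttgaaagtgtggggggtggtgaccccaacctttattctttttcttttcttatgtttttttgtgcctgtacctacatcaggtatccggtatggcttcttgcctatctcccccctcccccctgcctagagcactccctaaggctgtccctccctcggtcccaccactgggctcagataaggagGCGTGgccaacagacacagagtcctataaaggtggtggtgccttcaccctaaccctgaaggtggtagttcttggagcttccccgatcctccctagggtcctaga
Ahrr: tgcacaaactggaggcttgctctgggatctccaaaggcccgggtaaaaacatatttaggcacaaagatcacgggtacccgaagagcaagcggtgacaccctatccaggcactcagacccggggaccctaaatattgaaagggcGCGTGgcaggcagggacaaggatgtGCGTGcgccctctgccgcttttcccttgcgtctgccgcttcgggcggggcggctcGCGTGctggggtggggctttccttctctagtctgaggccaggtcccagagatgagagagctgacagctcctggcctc
The Cyp1a1 window held 1 match and the Ahrr window 3. Of all promoter windows 32.4% held at least 1 and 3.91% held 3 or more, and 50.6% of those of genes tested held at least 1. GCGTG is also one of the words of the hypoxia search.

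**Figure D2:**
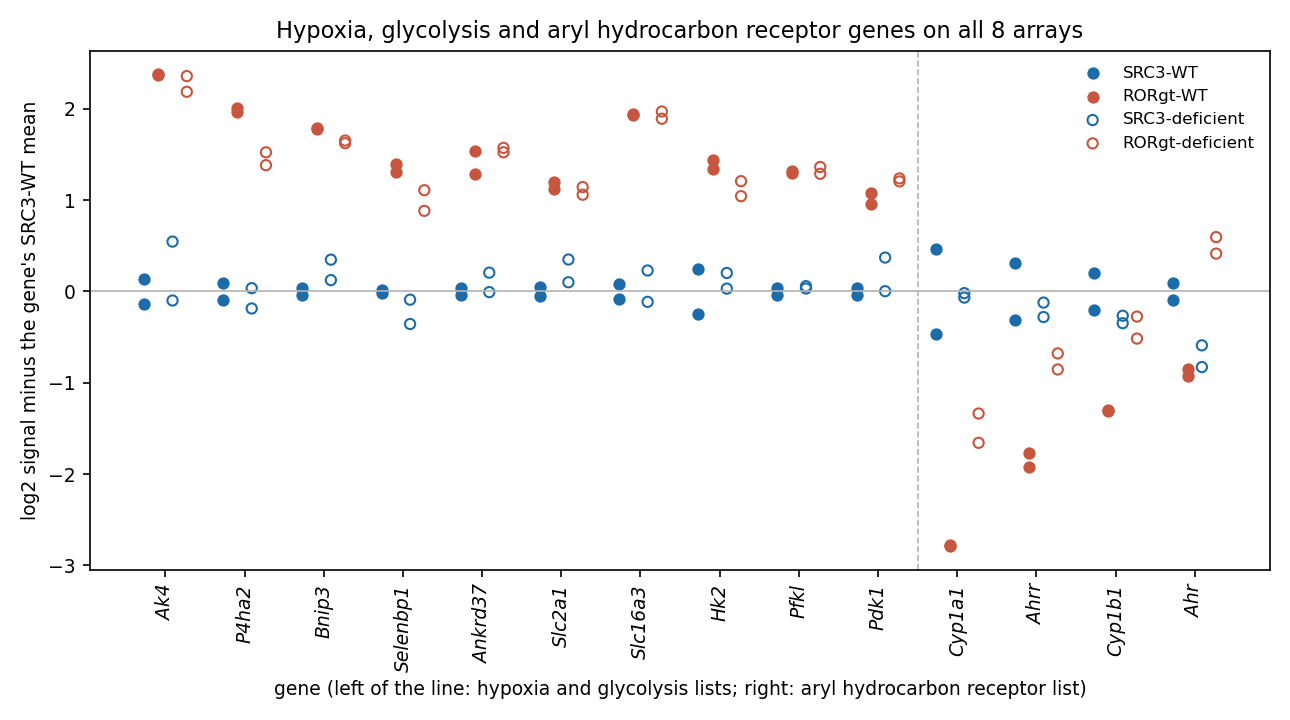
Log2 signal of 10 hypoxia or glycolysis genes and 4 aryl hydrocarbon receptor genes on all 8 arrays, after subtraction of the gene's SRC3-WT mean; filled points are wild-type and open points deficient arrays, blue for the SRC-3 and red for the RORgt experiment. For the first 10 genes all red points lay above all blue points, whereas for Ahr the red open points lay above and the red filled points below the blue filled ones.

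Transcripts induced by T cell receptor and MAP kinase signalling were also higher in RORgt-WT. Of 33 measured immediate early and MAPK feedback genes, 22 were higher and 3 lower, 10 of them at least 2-fold higher, with a median of 0.50. That made 75.8% called, against 59.5% of all genes. The zinc-finger factor Egr3 read 9.87 and 9.40 in SRC3-WT and 11.29 and 11.47 in RORgt-WT, 3.35-fold higher. The AP-1 factor Fosl1 was 2.89-fold higher, the phosphatase Dusp4, which turns MAP kinases off, 2.14-fold, and the mRNA decay factor Zfp36l1 2.16-fold. In 25 of the 33 genes the first SRC3-WT array lay nearer the RORgt-WT mean than the second did, against 48.3% of all genes tested. Among NF-kB genes 14 of 25 were higher and 3 lower (68% called), with a median of 0.34 (0.20 without the second SRC3-WT array). In 19 of the 25 the difference was bounded within 2-fold. Lta, which encodes lymphotoxin-α, read 10.37 and 10.26 against 11.69 and 11.83 (2.71-fold higher), its partner Ltb was 1.88-fold higher, and the nuclear IκB protein Bcl3 was 2.89-fold higher (11.20 and 10.79 against 12.47 and 12.59).

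Of 26 genes of IL-2 and common gamma chain signalling, 16 were higher and 5 lower (80.8% called), with a median of 0.39. Il3, a hematopoietic growth factor made by activated T cells, read 6.95 and 5.98 against 8.89 and 8.51, and the Il6-family cytokine Osm read 9.92 and 9.67 against 11.09 and 11.22 (2.57-fold higher). The IL-2 receptor chain Il2rb was 1.68-fold higher. IL-1, IL-6 and IL-23 were the cytokines added to the cultures. In the list of IL-1, IL-6 and IL-23 receptor signalling 6 of 23 were higher and 7 lower, with a median of 0.01. The share called, 56.5%, was close to the 59.5% of all genes. Without the second RORgt-WT array 7 genes of this list were called in place of 13. Il1rap, the accessory chain of the IL-1 receptor, was 1.83-fold lower in RORgt-WT (8.74 and 8.78 against 7.91 and 7.86). The antagonist Il1rn was 1.51-fold and the decoy receptor Il1r2 1.77-fold higher.

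Most called Th1, Th2 and regulatory T cell genes were higher in RORgt-WT, while follicular helper genes had a median near 0. Of 13 measured Th1 genes 9 were higher and 2 lower (median 0.84), of 8 Th2 genes 6 were higher and 0 lower (median 0.77), and of 18 regulatory T cell genes 11 were higher and 2 lower (median 0.62). The shares called were 84.6%, 75% and 72.2% in that order, against 59.5% of all genes. Of 13 follicular helper genes 3 were higher and 2 lower (38.5% called, below 59.5%), with a median of −0.06. Without the second SRC3-WT array the Th1 median was 0.45 and the regulatory T cell median 0.37. The defining factors themselves differed less. Tbx21, the Th1 factor T-bet, read 9.60 and 9.16 against 9.91 and 9.72 (1.36-fold), and its call was lost when the second SRC3-WT array, or any one array of the RORgt experiment, was left out. Foxp3, the regulatory T cell factor, was dim in all 4 arrays (7.54 and 7.52 against 7.88 and 7.84) and 1.25-fold higher. Gata3, the Th2 factor, was an exception at 8.50 and 8.15 against 9.48 and 9.79, 2.49-fold higher (adjusted p = 0.000487). Il13 was 2.04-fold and Il4 1.60-fold higher, both near the filter. Among Th1 genes, Runx3 was 2.36-fold higher (10.86 and 10.63 against 12.00 and 11.96), the chemokine receptor Cxcr3 2.03-fold, Hlx 1.84-fold and the chemokine Ccl4 2.71-fold. Il18rap, a chain of the IL-18 receptor, was the main exception at 2.45-fold lower (8.50 and 8.79 against 7.36 and 7.34). It lay below the filter in RORgt-WT, and its SRC3-WT mean was 1.74-fold above the filter value. Of the regulatory T cell genes, Ikzf4, which encodes Eos, was 2.39-fold higher, Gpr83 2.57-fold, the inhibitory receptor Lag3 2.69-fold and the folate receptor family member Izumo1r 2.44-fold. In none of the genes with values here did the groups overlap, but 80.3% of all genes tested had no overlap either. Most genes named here were chosen for a small p, which favours such separation. Of 20 measured interferon-gamma and antigen presentation genes, 4 were higher and 1 lower (25% called), with a median of −0.07. Among them the class II invariant chain Cd74 was 2.79-fold higher and H2-Ab1 2.71-fold (9.73 and 9.63 against 11.20 and 11.05), beside the B cell and myeloid marker sums given above, which were higher in RORgt-WT too.

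The TGF-β pathway, which steers T cells to Th17 and regulatory fates and whose ligands the protocol does not add, had 13 of 23 measured genes higher and 4 lower. The share called was 73.9%, against 59.5% of all genes, and the median was 0.26. Besides Tgfb3, the inhibitory Smad7 was 1.68-fold higher (9.23 and 9.15 against 9.92 and 9.97). The protease Furin, which releases active TGF-β from its precursor, was 2.06-fold higher (11.47 and 11.22 against 12.33 and 12.45), and the latent binding protein Ltbp4 1.40-fold. In the Gimap family, GTPases that keep lymphocytes alive, 5 of 8 were higher and 0 lower, with a median of 0.46. The share called, 62.5%, was near the 59.5% of all genes. Gimap7 (2.85-fold) and Gimap5 (2.55-fold) were the 2 members at least 2-fold higher.

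Clock genes differed in both directions, with 12 of 17 measured members higher and 3 lower (88.2% called). In the clock, CLOCK and BMAL1 drive the genes of their own repressors from E boxes. The repressor gene Ciart, also called Chrono, read 8.58 and 8.55 in SRC3-WT and 10.71 and 10.84 in RORgt-WT, 4.63-fold higher (log2 difference 2.21 ± 0.18 SE, adjusted p = 9.07e-05). The repressor Per1 read 9.67 and 9.43 against 10.87 and 10.84 (2.48-fold higher), the repressor Nr1d1, or REV-ERBα, 8.27 and 8.39 against 9.46 and 9.42 (2.16-fold), and Nfil3 10.04 and 10.12 against 11.29 and 11.33 (2.34-fold). Bhlhe40, which is also induced by hypoxia and supports Csf2 in T cells, was 1.54-fold higher. The activator Clock was 1.74-fold lower, at 9.98 and 10.05 against 9.08 and 9.35. Culture and harvest times are not given in the labels used here. The Ciart promoter window at chr3:95882179-95882478 on the minus strand is shown with each E box, CACGTG, in capitals, since it held more of them than nearly all others.
Ciart: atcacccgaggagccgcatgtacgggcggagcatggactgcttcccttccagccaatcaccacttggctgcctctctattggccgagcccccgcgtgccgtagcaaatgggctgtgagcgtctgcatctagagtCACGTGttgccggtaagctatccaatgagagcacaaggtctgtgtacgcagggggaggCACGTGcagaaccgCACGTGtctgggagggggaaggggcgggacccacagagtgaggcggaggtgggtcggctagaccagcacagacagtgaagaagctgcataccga
It held 3 E boxes, where 7.15% of all promoter windows held at least 1 and 0.0883% held 3 or more. Each E box contains ACGTG, one of the words of the hypoxia search. Of the other clock genes that were at least 2-fold higher, 1 of the 2 Per1 windows held 1 match, and those of Nfil3 and Nr1d1 held 0.

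**Figure D3:**
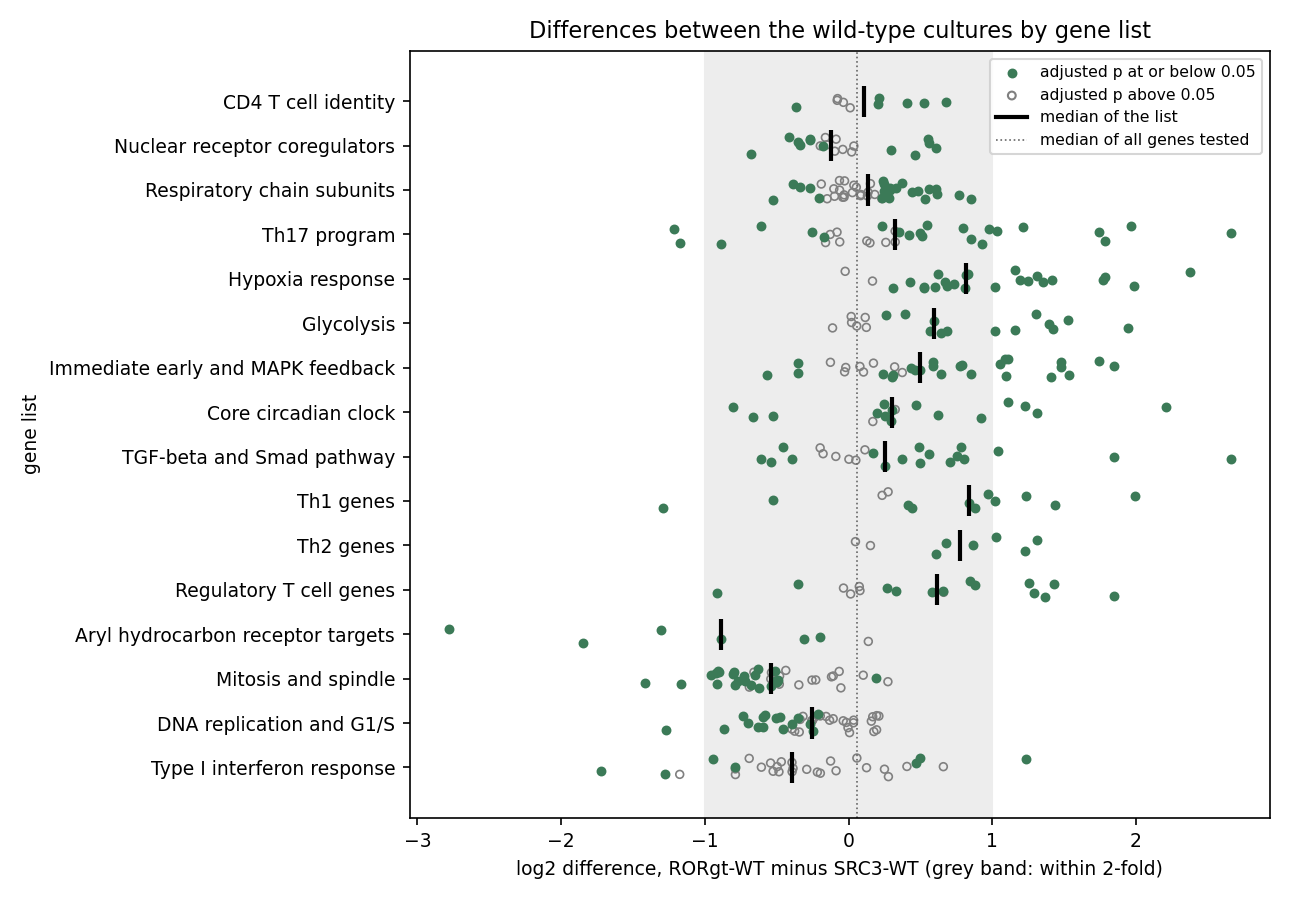
Log2 difference between the wild-type pairs for each measured member of 16 gene lists, with filled points for called genes, open points for the others, a bar at the list median and a dotted line at the median of all genes tested. The hypoxia list lay to the right of the dotted line but for 1 gene, the aryl hydrocarbon receptor and mitosis lists lay mostly to its left, and the CD4 identity and coregulator lists stayed inside the 2-fold band.

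Cell cycle genes were lower in RORgt-WT, but there the SRC3-WT replicates differed as much from each other as from the other pair. Of 39 measured mitosis and spindle genes 22 were lower and 1 higher, with a median of −0.54. The share called, 59%, was near the 59.5% of all genes, of which 25.5% were lower. Of 40 DNA replication and G1/S genes 16 were lower and 0 higher (40% called, below the 59.5% of all genes), with a median of −0.25. Mki67, which encodes the proliferation antigen Ki-67, read 12.71 and 13.11 in SRC3-WT and 11.95 and 11.97 in RORgt-WT, 1.94-fold lower. The spindle midzone protein gene Prc1 read 10.49 and 11.06 against 9.51 and 9.21 (2.67-fold lower), the kinesin gene Kif20b 9.51 and 10.07 against 8.37 and 8.35 (2.69-fold) and the kinetochore motor Cenpe 10.13 and 10.81 against 9.34 and 9.26 (2.25-fold). Kif11 and the checkpoint kinase Bub1b were each 1.87-fold lower. Among replication genes the polymerase subunit Pola1 was lowest, at 10.23 and 10.52 against 9.15 and 9.06 (2.41-fold lower), and the nuclease Fen1 was 1.82-fold lower. In each of these genes the second SRC3-WT array was the brighter of its pair, and in 36 of the 39 mitosis genes the first one lay nearer the RORgt-WT mean. The median absolute difference within the SRC3-WT pair was 0.51 over the mitosis genes, against 0.54 between the pair means. Without the first SRC3-WT array the median was −0.88 with 29 genes called, and without the second it was −0.30 with 13 called. Without the first RORgt-WT array 13 mitosis genes were called, and without the second 7. For the replication genes the median was −0.40 without the first SRC3-WT array and −0.15, with 9 genes called, without the second. Leaving out the first or second RORgt-WT array left 9 or 7 of them called. Replication-dependent histones all lay within 2-fold, 15 of 15 measured, with 4 called, or 1 without the second RORgt-WT array.

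Interferon-stimulated genes showed the same limit in another form. Of 31 measured type I interferon genes 3 were higher and 4 lower, or 22.6% against 59.5% of all genes, and the median of −0.39 came with a median absolute difference of 0.68 within the SRC3-WT pair. Mx1, an antiviral GTPase, read 9.68 and 8.94 against 7.69 and 7.49 (3.30-fold lower in RORgt-WT). Herc6, a ligase that attaches ISG15, read 10.85 and 10.45 against 9.36 and 9.39 (2.43-fold lower). Ifit2 read 8.12 and 8.09 against 7.23 and 7.10 (1.92-fold lower). Both RORgt-WT values of Mx1 and of Ifit2 lay below the filter. The nuclease gene Isg20 was higher in RORgt-WT at 10.74 and 10.82 against 9.99 and 9.10 (2.36-fold), as were the nucleic acid sensor Zbp1 (1.38-fold) and Lgals3bp (1.41-fold). These last 3 calls were each lost when the second SRC3-WT array or either RORgt-WT array was left out, and that of Zbp1 also without either RORgt-deficient array. The list's median was −0.03 without the first SRC3-WT array and −0.75 without the second, which was the lower of the pair by a median of 0.68. Members called numbered 14 without the second SRC3-WT array and 3 without either RORgt-WT array. So a difference in interferon genes as a group between the wild-type pairs was no larger than the difference within 1 of them.

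**Figure D4:**
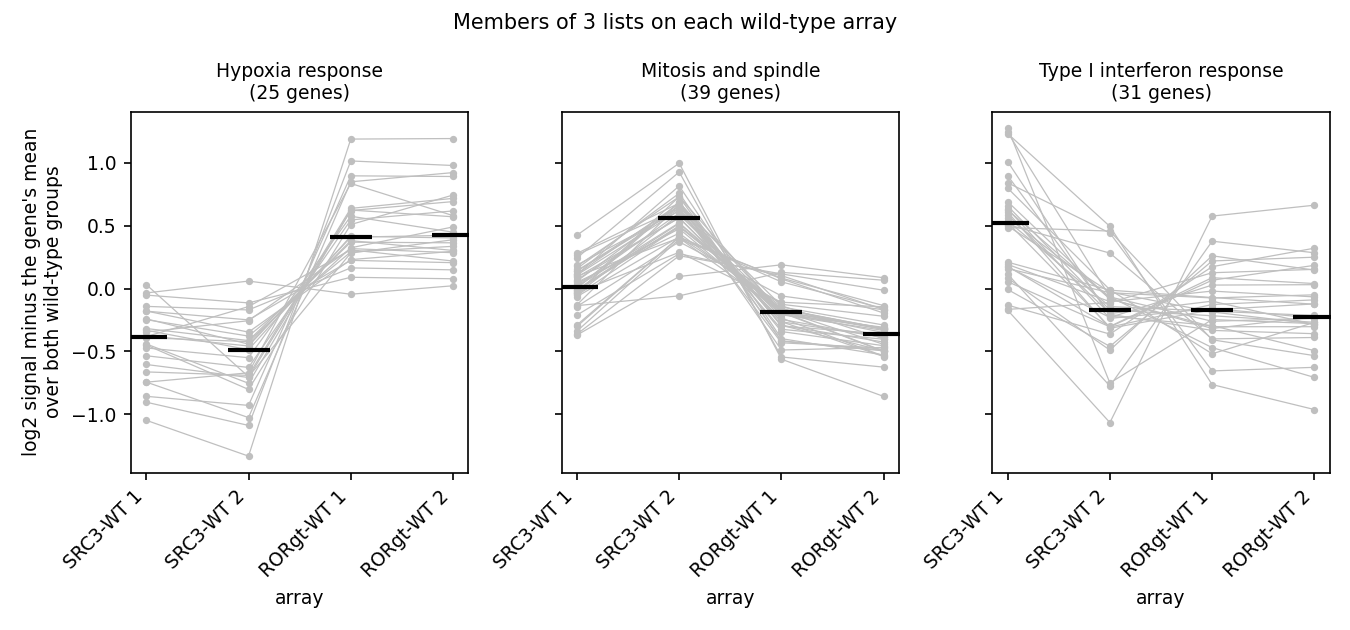
Log2 signal of each measured member of 3 lists on the 4 wild-type arrays, after subtraction of the gene's mean over both groups; grey lines join the values of one gene and black bars mark the array's median. Hypoxia genes stepped up between the pairs with little change within them, mitosis genes were highest on the second SRC3-WT array, and interferon genes were highest on the first SRC3-WT array with close medians on the other 3.

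Other lists held few differences over 2-fold. All 20 measured nuclear receptor coregulators lay within 2-fold, Ncoa3 among them, with 5 higher and 7 lower. The same held for all 21 chaperones of the unfolded protein response, all 18 p53 targets and cell death genes, and 20 of 21 cholesterol synthesis genes. These shares compare with 90.8% within 2-fold over all genes tested, so these lists lay near the background in size. The share called was 60% of coregulators, 57.1% of chaperones, 72.2% of p53 and cell death genes and 47.6% of cholesterol synthesis genes, against 59.5%. Without the second RORgt-WT array 8 of the p53 and cell death genes were called in place of 13, and without either RORgt-WT array 6 cholesterol synthesis genes in place of 10.

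The deficient cultures of the same experiments gave a second comparison that shares no array with the first, RORgt-deficient minus SRC3-deficient. Genotype, and sex on 1 of the 4 arrays, differ there as well. Of 11166 genes, 6712 were called (60.1%) and 410 were also at least 2-fold (3.67%). Across genes the differences correlated at r = 0.842, and genes are not independent replicates. Over all 11166 genes, 9572 had the same sign in both comparisons, so agreement in sign was common. Of the 423 genes with 2-fold differences between the wild-type pairs, 386 (91.3%) were called in the same direction between the deficient pairs and 11 had the opposite sign. Both lists shared 237 genes in the same direction, which is 56% of the wild-type list and 57.8% of the deficient list. Hypoxia genes kept their shift, with a median of 0.80 and 19 of 25 higher (35.4% of all genes were higher there). Ak4 differed by 2.05 there, P4ha2 by 1.53, Bnip3 by 1.40 and Slc16a3 by 1.87. Tgfb3 (3.09), Fosl2 (1.59), Ciart (2.02), Malat1 (−1.87), Mir687 (−1.94) and Gpr52 (−1.67) also had differences like those of the wild-type pairs. The shift of the mitosis list was not seen there: its median was −0.03, with 3 genes higher and 1 lower. The aryl hydrocarbon receptor list had a median of −0.10, although Cyp1a1 was lower by 1.45.

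A test of the difference between the 2 comparisons was passed by 132 of all genes (1.18%) and by 19 of the 423 (4.49%). Th17 effector genes were among them. Il17a was 1.21 higher between the wild-type pairs and 1.62 lower between the deficient pairs, reading 9.0 and 9.09 in SRC3-deficient and 7.60 and 7.26 in RORgt-deficient cultures (adjusted p of the difference 0.00503). Il17f (0.00553), Il23r (0.00503), Ccr6 (0.00824) and Csf2 (0.0307) likewise differed between the comparisons, and so did Ahr, which was lower in RORgt-WT and higher in RORgt-deficient cultures (0.00396). Between RORgt-deficient and RORgt-WT cultures 1963 genes were called (17.6%). Cd93 fell from 9.21 and 9.43 in RORgt-WT to 7.13 and 7.08 in RORgt-deficient cultures, which left it above the SRC3-deficient values of 5.98 and 5.95. Some genes that were 2-fold higher in RORgt-WT had RORgt-deficient levels close to those of the SRC-3 experiment. Furin read 10.92 and 11.15 in RORgt-deficient against 11.11 and 11.08 in SRC3-deficient cultures, Nr1d1 read 8.34 and 8.48 against 8.29 and 8.18, and Dusp4 read 10.63 and 10.75 against 10.55 and 10.57. Each of these 3 passed the test of the difference between the comparisons (adjusted p = 0.0264, 0.0144 and 0.0305). Ebf1 read 10.15 and 10.14 against 10.36 and 10.24 and did not pass it (0.0862).

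**Figure D5:**
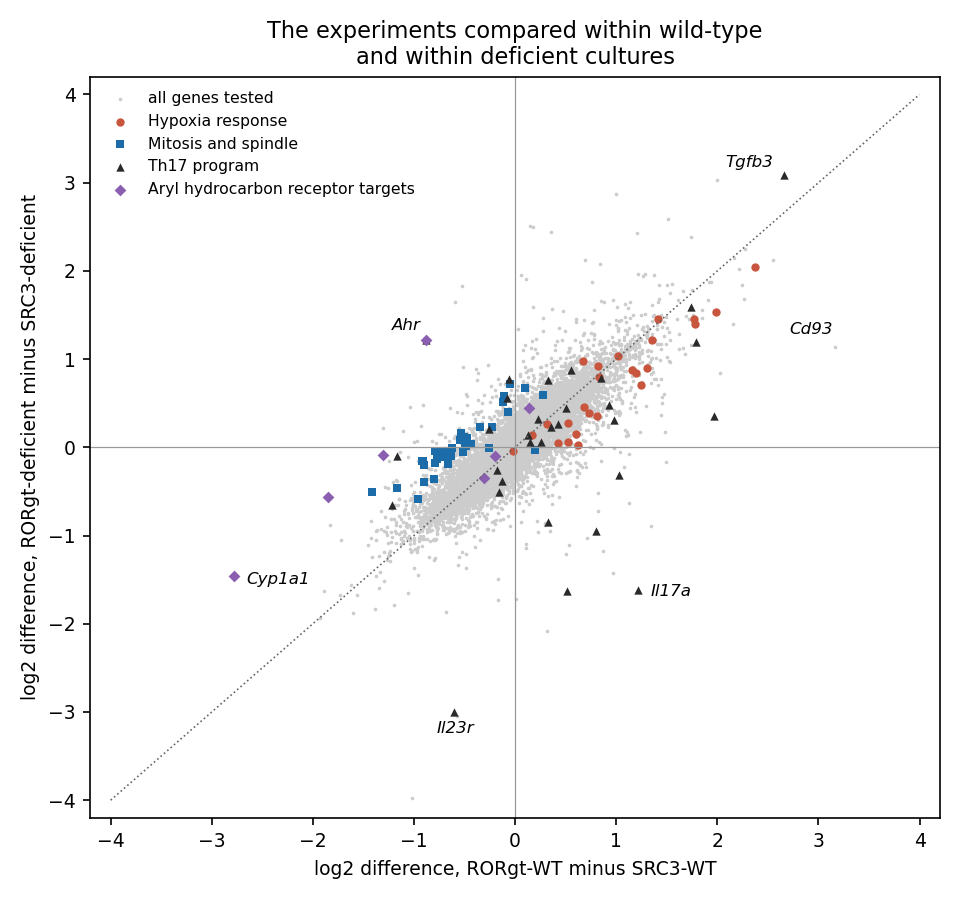
Log2 difference between the experiments in deficient cultures (vertical axis) against that in wild-type cultures (horizontal axis) for the 11166 genes tested, with 4 lists coloured and the line of equal differences dotted. Hypoxia genes lay along or below the line, mitosis genes lay left of it near 0 on the vertical axis, and Il17a, Il23r and Ahr lay far from it.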

How the data were processed

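The 8 arrays were of the Affymetrix Mouse Gene 1.0 ST type. Per the submitters' processing notes, the deposited log2 values are RMA output of Expression Console, with no version given. The table held 35556 probe sets. Deposited medians were 7.90 to 7.93 in the SRC-3 experiment and 7.76 to 7.80 in the RORgt experiment, so all 8 arrays were quantile-normalised together, which sets any overall difference to 0. Probe sets naming 1 gene were kept at or above the median of all values (7.85) on at least 2 arrays. The brightest stood for its gene, which left 11166 genes. A limma model (3.58.1, R 4.3.3) took all 8 arrays and gave each of the 4 groups its mean (4 residual and 3.47 prior degrees of freedom), with Benjamini-Hochberg adjustment over all genes. The code was tested on simulated data. Members and the 47 gene lists were chosen with earlier results of these data known. Genes named are the Th17 program list, up to 15 largest called differences per direction with groups that do not overlap and no predicted genes, and up to 6 called members per other list by smallest p. Alternatives changed the scaling, filter, probe set choice, arrays fitted, prior, array weights, replicate block, threshold and replicates. Promoter and microRNA sequences are RefSeq's.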

Additional observations from a re-analysis of the deposited data

Results flagged for a closer look

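For 17 named genes the difference between the experiments was not the same in wild-type and deficient cultures, by limma's test of the difference of the 2 comparisons (wild-type minus deficient, log2, adjusted p). The deficient cultures differ in genotype and partly in sex. Among Th17 genes the values were 2.83 for Il17a (adjusted p = 0.00503), 2.14 for Il17f, 2.40 for Il23r, 1.74 for Ccr6, 1.34 for Csf2, −0.84 for Il6st and −2.10 for Ahr. Its target Cyp1b1 had −1.22. Cd93 had 2.02 (adjusted p = 0.00295) and Stra6 had 1.18. Signalling and antigen presentation genes followed with 1.07 for Lta, 0.96 for Dusp4, 1.09 for Furin and 1.30 for Cd74. The clock genes Nr1d1 and Bhlhe40 had 0.93 and 0.60. Ncoa3, which is the gene targeted in the SRC-3 experiment, had −0.81.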

How the results depend on the processing

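Calls between the wild-type pairs numbered 6643, with 10369 when no filter was used and 4101 with a stricter one. Between the deficient pairs the counts were 6712, 10702 and 4121. Leaving out 1 array gave 5003 to 6746 calls between the wild-type pairs and 4946 to 7093 between the deficient pairs, and 393 to 527 genes with 2-fold differences. Of the calls, 57.2% were higher in RORgt-WT (55.6% to 59.1% with 1 array left out), but 69.7% when arrays were shifted to one median, and 70.0% of the 2-fold calls became 81.1%. That scaling moved the median of all genes from 0.06 to 0.15 and raised the medians of the Th17 (0.52), hypoxia (0.95), glycolysis (0.83) and immediate early lists (0.67). Glycolysis was 0.71 on deposited values, 0.67 with each experiment normalised alone and 0.64 with the stricter filter. The aryl hydrocarbon receptor median was −0.32 with no filter and −0.31 with the stricter one, which tested other members. At an adjusted p of 0.01, 3 interferon and 10 mitosis genes were called. With 1 array left out, medians ran from 0.24 to 0.47 (Th17), 0.79 to 0.89 (hypoxia), 0.51 to 0.66 (glycolysis), 0.39 to 0.58 (immediate early), −0.98 to −0.79 (aryl hydrocarbon receptor), −0.88 to −0.30 (mitosis) and −0.75 to −0.029 (interferon). Members called ran from 16 to 24, 22 to 24, 11 to 13, 18 to 26, 5 to 6, 7 to 29 and 3 to 14 in the same order. The replicate numbers did not pair the wild-type arrays across the experiments: their same-numbered deviations correlated across genes at −0.15. Within the experiments, wild-type and deficient deviations correlated at 0.54 (SRC-3) and 0.0080 (RORgt). With a replicate block 6649 genes were called, and 18 interferon genes in place of 7. The block was also crossed, an alternative chosen after seeing the data (7059 genes). Signs turned for small uncalled differences only: under the shift to one median for Il21 (0.075), Maf (0.19), Il12rb1 (0.090) and Ncoa3 (0.11), and for Maf also on deposited values (0.072) and with each experiment normalised alone (0.052). Ncoa3 ran from −0.21 to 0.019 with 1 array left out. Medians near 0 turned for chaperones of the unfolded protein response (0.033 on deposited values, 0.15 and 0.0092 under the shift and separate normalisation) and coregulators (0.026 under the shift). They also turned with 1 array left out for IL-1, IL-6 and IL-23 receptor signalling (−0.039 to 0.064) and cholesterol synthesis (−0.011 to 0.060). The causes were not tested. With 2 arrays a group, their number limits the precision.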
